A study of Homo sapiens with 9 samples.

Results

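Chromatin positions at which the remodelling factor BPTF was recruited or displaced after 30 min of progestin were described here. The authors listed 1848 recruited and 5546 displaced positions, 7394 in all, out of 118560 positions and peaks in all lists of the series. The recruited list is set against the displaced list, and both lists came from the same pair of libraries. As the names of the lists say, the members were selected by the authors on BPTF at 30 min relative to 0 min, so that difference is a description of how the lists were made and not a result. The lists hold a chromosome, a start and an end, with no height, fold or score. Neither the size of a change nor the members just inside and outside the authors' criterion can therefore be given.

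The cells were T47D-MTVL, a luminal line derived from human breast cancer, in which an integrated reporter gene is under control of the promoter of mouse mammary tumour virus. All cells had been kept for a day without serum, after medium with charcoal-stripped serum and no phenol red. The 30 min and 60 min cells received the synthetic progestin R5020 at 10 nM, and the 0 min cells were unstimulated. ChIP-seq at 0 and 30 min covered BPTF, HP1γ and LSD1, and that of histone H2A covered 0, 30 and 60 min, with 1 library per antibody and time. No difference below has a replicate check, and every difference is between libraries of 1 cell line. The files hold no expression values, so the labelled cell type could not be set against marker genes, and the direction of each list could not be checked against BPTF signal. How deeply BPTF, HP1γ and LSD1 were sequenced is unknown, since their lists carry no read counts. Coordinates are on GRCh37, and positions are given as listed. Whether a listed start counts from 0 or from 1 is not stated, so a shift of 1 base is possible.

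BPTF is the largest subunit of NURF, a complex that uses ATP to slide nucleosomes. Its PHD finger and bromodomain read methylated and acetylated histone tails, and its ATPase partner belongs to the ISWI family. Progestins act through the progesterone receptor, which binds palindromic hormone response elements made of inverted half-sites and recruits chromatin remodellers. LSD1 is a histone demethylase, and HP1γ is a chromatin protein best known for binding methylated histone H3. H2A is a core histone, and its ChIP signal reads nucleosome content.

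The motif followed here was the hormone response palindrome, searched on both strands as GNACA, then 3 free bases, then TGTNC. This pattern is met by the element of the progesterone receptor and of the glucocorticoid, mineralocorticoid and androgen receptors alike. The matches closest to the ideal element are printed first to show what the pattern looks like in each list, whereas the comparison of the lists counts all matches, most of them further from it. Each match is 15 bases of the GRCh37 plus strand, with the half-sites of 6 bases in capitals and the spacer in lower case. Differences are counted over both half-sites against AGAACA and TGTTCT. The lines give 7 of the 8 recruited matches with up to 2 differences and 4 of the 5 displaced matches with up to 1, chosen after their values were seen.
Recruited site, chr4:6635144-6635158, 1 difference: AGGACAaacTGTTCT
Recruited site at KCNMA1, chr10:79258823-79258837, 2 differences: AGGACAgtcTGTGCT
Recruited site, chr13:91185372-91185386, 2 differences: AGAACAagcTGTACA
Recruited site, chr17:47472504-47472518, 2 differences: TGAACAtctTGTGCT
Recruited site at KIAA0825, chr5:93697638-93697652, 2 differences: AGAACAgtgTGTGCA
Recruited site beside FKBP5, chr6:35699795-35699809, 2 differences: AGAACAtccTGTGCC
Recruited site at SARDH, chr9:136555413-136555427, 2 differences: TGGACAagcTGTTCT
Displaced site, chr15:61626160-61626174, no difference: AGAACAaagTGTTCT
Displaced site at ATL2, chr2:38543280-38543294, no difference: AGAACAatcTGTTCT
Displaced site, chr16:82550439-82550453, 1 difference: AGGACAagcTGTTCT
Displaced site, chr7:8998553-8998567, 1 difference: AGTACAgcaTGTTCT

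The 4 windows printed next are of 300 bases, on the plus strand of GRCh37, centred on a position, with a match and 1 flanking base on each side in capitals. The ZBTB16 window is shown because, of the windows at positions touching a listed progestin response gene, it alone held a palindrome. The window beside FKBP5, a progestin and glucocorticoid response gene that encodes a receptor co-chaperone, is GC-rich and holds a palindrome. The ATL2 window shows a displaced position with an ideal element in AT-rich sequence. The MCM2 window is the displaced position nearest to the start of a listed gene, and it holds no match. The FKBP5 and ATL2 windows were chosen after their values were seen.
ZBTB16 intron, recruited, chr11:114050038-114050337: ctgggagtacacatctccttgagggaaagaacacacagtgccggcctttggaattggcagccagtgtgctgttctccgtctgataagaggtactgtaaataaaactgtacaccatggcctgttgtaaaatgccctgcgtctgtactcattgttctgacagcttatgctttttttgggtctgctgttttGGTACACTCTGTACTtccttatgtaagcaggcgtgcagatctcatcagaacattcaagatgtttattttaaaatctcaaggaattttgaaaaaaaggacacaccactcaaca
Beside FKBP5, recruited, chr6:35699635-35699934: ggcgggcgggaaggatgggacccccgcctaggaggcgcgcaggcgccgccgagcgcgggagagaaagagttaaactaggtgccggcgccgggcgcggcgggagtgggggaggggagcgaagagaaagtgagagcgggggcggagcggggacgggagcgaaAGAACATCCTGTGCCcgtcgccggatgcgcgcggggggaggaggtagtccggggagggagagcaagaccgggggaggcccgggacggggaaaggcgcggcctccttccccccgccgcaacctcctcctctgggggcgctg
ATL2 intron, displaced, chr2:38543216-38543515: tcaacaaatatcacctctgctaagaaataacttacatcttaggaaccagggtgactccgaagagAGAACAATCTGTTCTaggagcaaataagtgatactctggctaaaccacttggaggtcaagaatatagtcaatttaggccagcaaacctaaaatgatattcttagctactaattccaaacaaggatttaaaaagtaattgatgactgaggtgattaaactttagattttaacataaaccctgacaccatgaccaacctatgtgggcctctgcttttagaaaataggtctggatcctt
MCM2 upstream, displaced, chr3:127316107-127316406: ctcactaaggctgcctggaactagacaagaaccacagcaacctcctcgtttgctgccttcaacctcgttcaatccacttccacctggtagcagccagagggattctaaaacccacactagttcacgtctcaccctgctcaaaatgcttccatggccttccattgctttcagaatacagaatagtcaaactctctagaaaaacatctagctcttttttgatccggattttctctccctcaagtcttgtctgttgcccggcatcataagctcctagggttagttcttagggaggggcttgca

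The recruited positions lay at promoters more often than the displaced ones. Positions counted as promoter positions where they came within 1 kb of the start of any annotated transcript of a protein-coding gene. Such a transcript need not itself be protein-coding. Of the recruited positions 290, or 15.7% (Wilson 95% interval 14.1 to 17.4), met this, against 325 displaced positions, or 5.86% (5.27 to 6.51). A grid of 56705 windows of 588 bp, the median length of a position, placed every 50 kb along the genome gave 5.53%. Weighted to the chromosomes of each list, the same grid gave 5.97% for the recruited and 5.65% for the displaced positions. Over all positions the recruited share was thus above the grid, whereas the interval of the displaced share held the grid values. At like GC content, compared after the data were seen, the lists were closer below 46% GC, where their intervals overlapped. The shares were 6.67% against 5.16% below 36% GC, 7.67% against 4.54% from 36% to 40%, and 7.97% against 5.00% from 40% to 46%. From 46% upwards they were 25.4% (22.6 to 28.4) against 13.5% (11.0 to 16.6), and these intervals did not overlap. The intervals cover the sampling of positions and not the spread between cultures.

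The shares in exons and introns were close, whereas recruited positions lay nearer to starts and less often between genes. Exons held 6.49% of recruited and 5.97% of displaced positions, and introns held 33.0% and 33.9%, with grid shares of 4.86% and 31.1%. Positions in a noncoding gene were 14.5% of the recruited and 16.4% of the displaced list, with 16.8% of the grid. Positions between genes were 30.4% of the recruited list (28.3 to 32.5), 37.9% of the displaced list (36.6 to 39.2) and 41.7% of the grid. The median distance to the nearest such start was 16.6 kb for recruited positions, 42.3 kb for displaced positions and 39.9 kb for the grid. Within 10 kb of a start lay 39.99% of recruited and 24.9% of displaced positions. Beyond 100 kb lay 16.7% of recruited and 35.3% of displaced positions, with 33.3% of the grid.

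**Figure D1:**
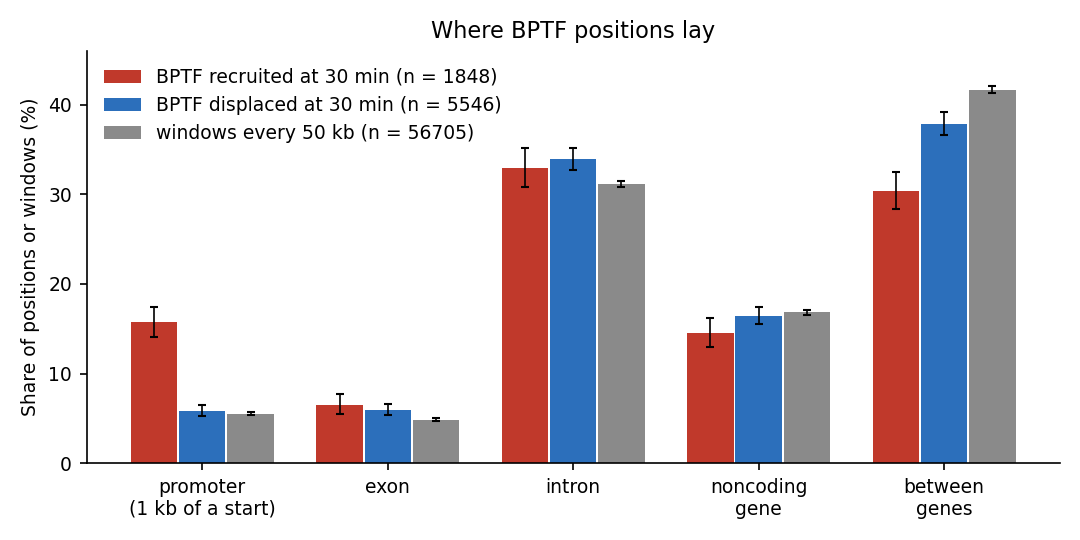
Share of positions or windows (%) in 5 kinds of place, for recruited positions, displaced positions and windows every 50 kb. Bars are shares and lines are Wilson 95% intervals. The recruited bar at promoters stands at 15.7%, against 5.86% for displaced positions and 5.53% for the grid.

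Base composition differed between the lists. Over the central 300 bases the median GC content was 45% in recruited positions (order-statistic 95% interval 44.3 to 45.3), 36% in displaced positions (36 to 36.3) and 40% in the grid. The middle 90% of recruited positions ran between 35.3% and 65.3% GC, and that of displaced positions between 30% and 49.7%, so the lists overlapped. At promoters the median was 54.7% in recruited positions, 37.3% in displaced positions and 47% in grid windows. Away from promoters it was 44%, 36% and 39.7% in the same order. Recruited positions held a mean of 5.13 CpG dinucleotides per 300 bases, displaced positions 1.88 and grid windows 2.95. The displaced positions at promoters were therefore AT-rich for promoter sequence, and the recruited ones GC-rich.

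The difference in GC content was larger at the centre of the positions than 2 to 3 kb away, where the lists still differed. Within 200 bp of the centre, recruited positions averaged 46.5% GC, against 43.5% at a distance of 2 to 3 kb. Displaced positions averaged 37.5% at the centre and 39.0% at 2 to 3 kb. Recruited positions thus stood on a local GC rise and displaced positions in a broader trough, whose lowest bins of 100 bp lay 350 bp from the centre at 36.6%. Inside that trough the displaced list also rose slightly at its centre, to 37.5%. The H2A libraries of the same times also differed along GC content, as given with the gene values. Whether the BPTF libraries differed in their recovery of GC-rich fragments was not tested, and with 1 library a time it cannot be told apart from a difference in binding.

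Hormone response palindromes were found more often in recruited than in displaced positions. They lay in 33 recruited windows of 300 bases, or 1.79% (1.27 to 2.50), and in 25 displaced windows, or 0.451% (0.306 to 0.665). The grid gave 0.372%, and all 35116 RefSeq promoters of 300 bases (GRCh38.p14) gave 0.390%. The matches of the recruited list were centred. Per 1000 positions and kb, they numbered 59.5 within 200 bp of the centre and 20.6 at 2 to 3 kb, whereas displaced positions had 14.4 and 13.7. These densities rest on 44 recruited and 32 displaced matches at the centre. In bins of 300 bp away from the centre the recruited density varied between 5.41 and 30.7, on 3 to 17 matches a bin. The median distance of a match from the centre of its position was 44 bp in recruited windows and 79 bp in displaced windows.

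The order of the lists in palindromes was the same at like GC content and away from promoters, a comparison added after the data were seen. In the range from 40% to 46% GC, 10 of 552 recruited windows (1.81%) and 4 of 1039 displaced windows (0.385%) held a match. The intervals were barely apart, at 0.987 to 3.30 and 0.150 to 0.986. In the range from 36% to 40% the counts were 6 of 326 (1.84%, 0.846 to 3.96) and 6 of 1277 (0.470%, 0.216 to 1.02). From 46% upwards they were 16 of 835 (1.92%, 1.18 to 3.09) and 3 of 577 (0.520%, 0.177 to 1.52). In these ranges the intervals overlapped. Below 36% the counts were 1 of 135 recruited and 12 of 2653 displaced windows, which is too few to compare. Away from promoters, 28 of 1558 recruited windows (1.80%, 1.25 to 2.59) and 24 of 5221 displaced windows (0.460%, 0.309 to 0.683) had a match. The matches of the recruited list were not closer to the ideal element. None of its 33 matches was ideal, against 3 of 25 in the displaced list. Up to 1 difference was found in 1 recruited and 5 displaced matches, too few to compare, and 8 recruited and 9 displaced matches had up to 2 differences. The remaining recruited windows, the large majority, held no palindrome.

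**Figure D2:**
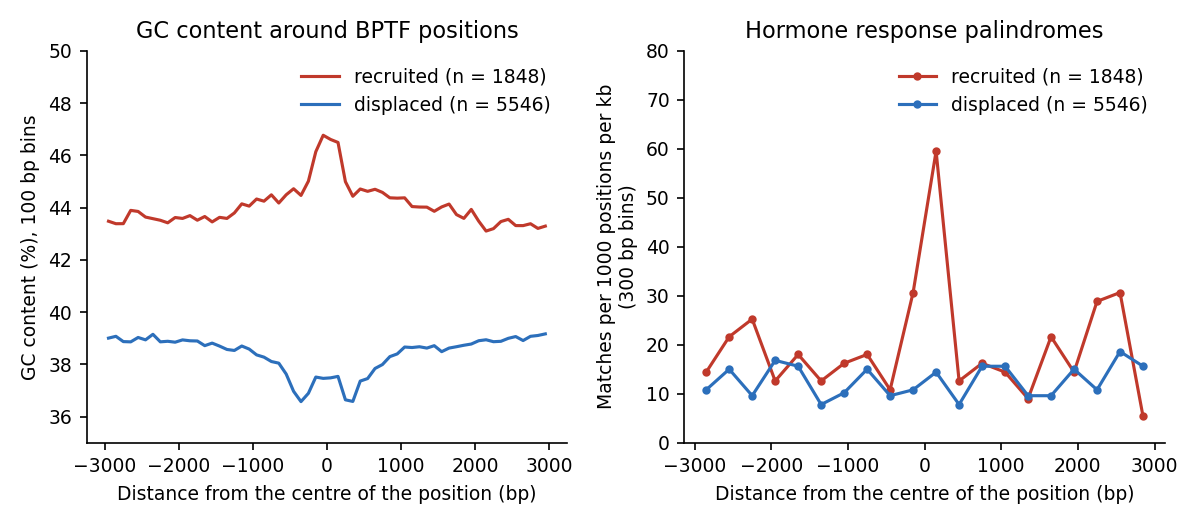
Left, mean GC content (%) in bins of 100 bp by distance from the centre of 1848 recruited and 5546 displaced positions. Right, palindrome matches per 1000 positions per kb in bins of 300 bp, which rest on 3 to 33 matches a bin in the recruited list. The recruited line reached 30.7 and 59.5 in the bins on either side of the centre and 30.7 once more in a bin near 2550 bp, and the displaced line stayed between 7.81 and 18.6 throughout.

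Among the other motifs, AP-2 and ETS were more frequent in recruited windows, and GATA and the CCAAT box in displaced windows. Their shares at like GC content were not computed. The GC-rich AP-2 motif GCCNNNGGC was in 10.4% of recruited, 3.32% of displaced and 4.25% of grid windows. The ETS motif CCGGAAG was in 1.46%, 0.559% and 0.712%. The GATA motif AGATAA, known from the luminal factor GATA3, was in 18.02%, 27.1% and 21.3%, and the CCAAT box in 35.3%, 44.2% and 38.4%. The forkhead motif TGTTTAC, bound by FOXA1, was in 5.74%, 6.36% and 4.66%, and the AP-1 motif TGANTCA in 10.0%, 10.8% and 9.32%. Over all windows, the intervals of the lists overlapped for forkhead, AP-1, CTCF (0.379% and 0.216%, grid 0.194%) and the single half-site. The single half-site TGTTCT was in 27.7% of recruited windows (25.7 to 29.8), 25.8% of displaced windows (24.6 to 26.9) and 22.99% of the grid. Away from promoters the half-site was in 29.8% (27.6 to 32.1) of recruited and 25.8% (24.7 to 27.0) of displaced windows, and from 40% to 46% GC in 33.3% (29.5 to 37.4) and 24.9% (22.4 to 27.6), so these intervals did not overlap. They overlapped in the other GC ranges, and from 46% upwards the shares were 23.5% and 23.9%. In RefSeq promoters the half-site was in 14.8%, GATA in 10.3%, the CCAAT box in 34.6%, forkhead in 3.42%, AP-1 in 7.71%, AP-2 in 23.2% and ETS in 10.3%. The half-site is contained in an ideal palindrome, so these shares are not independent. A match is a string of letters and not a shown binding site.

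The balance of the lists varied between chromosomes. On chromosome 3 there were 219 recruited and 857 displaced positions, a recruited share of 20.4% (18.1 to 22.9). On chromosome 16 there were 75 and 68, a share of 52.4% (44.3 to 60.5). On chromosome 19, the chromosome with the highest GC content at 48.4%, there were 17 and 4, a share of 81.0% (60.0 to 92.3). Chromosome 17 had 32.6% and chromosome 13 had 17.9%. The recruited share and the GC content of a chromosome had a Spearman correlation of 0.56 over 23 chromosomes, as a description. The density per Mb of both lists followed that of HP1γ and LSD1 peaks, with Spearman values between 0.88 and 0.97 over the same 23 chromosomes. Chromosomes share their number of copies in this line across all libraries, and this was not taken off.

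**Figure D3:**
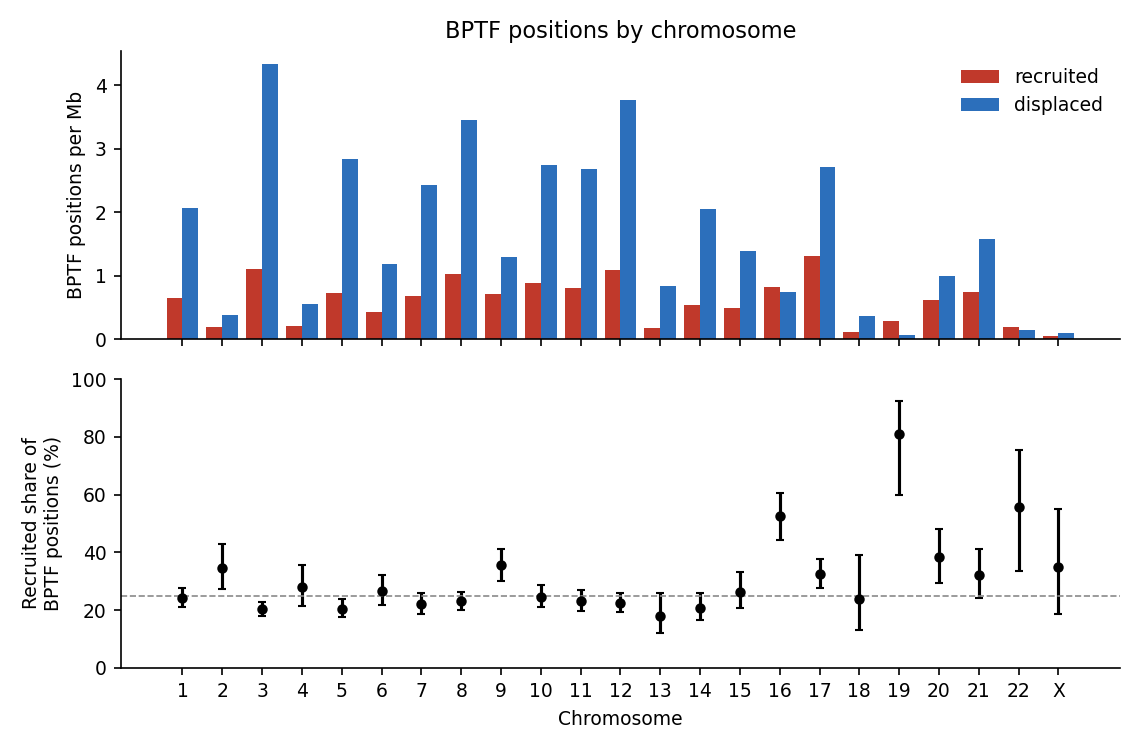
Upper, BPTF positions per Mb on each chromosome for the recruited and displaced lists. Lower, recruited positions as a share of both lists (%), with Wilson 95% intervals and a dashed line at the share over all chromosomes. Chromosomes 16, 19 and 22 held more recruited than displaced positions.

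A minority of BPTF positions overlapped HP1γ or LSD1 peaks. At least 1 of the 4 peak lists was overlapped by 217 recruited positions (11.7%) and 680 displaced positions (12.3%), counting an overlap of 1 bp. LSD1 at 0 min overlapped 64 recruited positions, or 3.46% (2.72 to 4.40), and 298 displaced positions, or 5.37% (4.81 to 5.998). Grid windows weighted to the same chromosomes gave 2.04% and 2.27%. LSD1 at 30 min overlapped 1.89% of recruited and 2.27% of displaced positions, with grid shares of 0.955% and 1.00%. HP1γ at 0 min overlapped 5.03% (4.13 to 6.13) and 4.13% (3.64 to 4.69), with grid shares of 1.61% and 1.71%. HP1γ at 30 min overlapped 2.87% and 2.49%, with grid shares of 1.20% and 1.29%. All 8 shares were above their grid values. Between the lists, only the intervals for LSD1 at 0 min did not overlap.

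The LSD1 difference at 0 min moved with base composition. In windows from 40% to 46% GC the share was 4.53% of recruited and 4.62% of displaced positions, and from 46% upwards it was 1.92% and 2.08%. Between 36% and 40% it was 3.99% and 5.95%, and below 36% it was 7.41% and 6.11%. Away from promoters it was 3.72% (2.89 to 4.78) and 5.42% (4.84 to 6.07), and these intervals did not overlap. Without chromosome 3, which held 857 of the displaced positions, it was 2.82% (2.12 to 3.75) and 4.18% (3.64 to 4.79). The order stayed, and the intervals overlapped. LSD1 at 30 min stood at 1.60% and 1.56% without that chromosome, so its order turned. Both times of LSD1 were overlapped by 6 recruited and 15 displaced positions, and both times of HP1γ by 6 and 21.

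**Figure D4:**
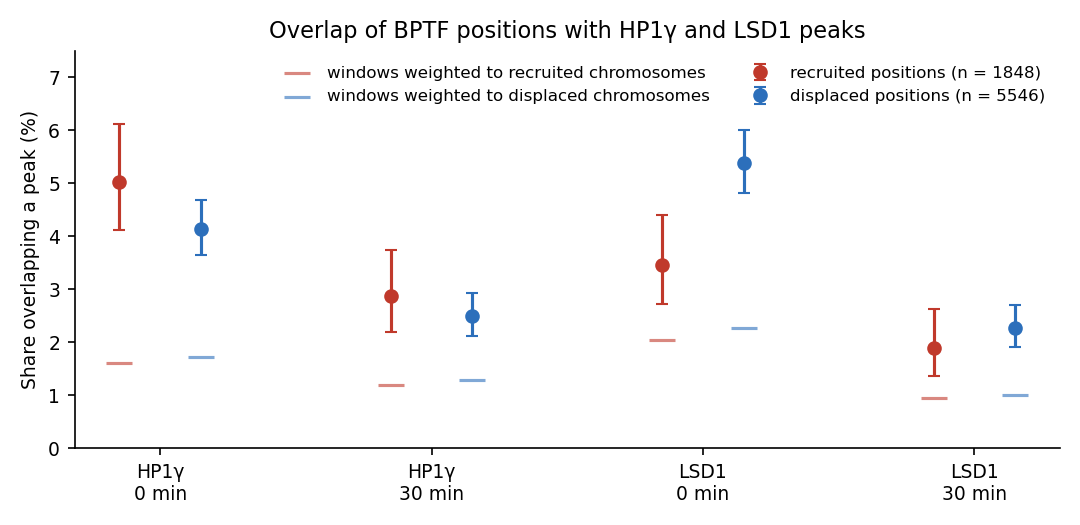
Share of recruited and displaced BPTF positions (%) that overlapped an HP1γ or LSD1 peak at 0 or 30 min. Points are shares with Wilson 95% intervals, and dashes are grid windows weighted to the chromosomes of each list. LSD1 at 0 min stood at 3.46% for recruited and 5.37% for displaced positions.

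Recruited positions touched 1076 of the 20318 genes of the H2A table within the gene body or 5 kb of it, a background of 5.3% of all genes. Displaced positions touched 1858 genes, a background of 9.14%. These groups divided into 776 genes with recruited positions only, 1558 with displaced positions only and 300 with both. Touched genes were long, and these shares of genes were not adjusted for length. The median length was 52.3 kb with recruited positions only, 87.5 kb with displaced positions only and 207 kb with both, against 22.7 kb over all genes tested for H2A. Their median GC content was 45.3%, 39.8% and 39.9%, against 45.4% over all genes.

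Progestin response genes were touched by recruited positions in 8 of 33 cases (24.2%, against the 5.3% background) and by displaced positions in 2 (6.06%, against 9.14%). The median length of the listed genes was 25.7 kb. The list was drawn up with earlier results of these data known, and the counts are a description. PGR, which encodes the progesterone receptor itself, held a recruited position in an intron, 39.6 kb from its 5′ end (chr11:100961264-100962002). STAT5A, a signal transducer of prolactin and progestin, held one 7.04 kb into the gene (chr17:40446336-40446871). ZBTB16, a zinc finger repressor induced by progestin and glucocorticoid, held one at 115 kb, in the window printed above (chr11:114049888-114050486), which also overlapped an HP1γ peak at 0 min. At BCL6, a repressor of transcription, the recruited position lay in an exon (chr3:187449232-187449879).

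The other 4 genes of the list had a recruited position near an annotated start. They were TIPARP, which encodes a mono-ADP-ribosyltransferase, with a position 2.47 kb upstream of the start given in the table (chr3:156391618-156392342), and EHF, an epithelial ETS factor (chr11:34663310-34664137). NFKBIA, the inhibitor of NF-κB, had one 1.39 kb inside the gene (chr14:35872257-35872806), where an HP1γ peak stood at 30 min. BCL2L1, a survival gene of the BCL2 family, had one 2.28 kb inside (chr20:30307958-30308901). These starts are of any transcript of a protein-coding gene. A position at a promoter can therefore lie far from the 5′ end that the table gives, as at EHF at 21.0 kb. The 2 displaced positions of the list lay at PDK4, a kinase that restrains glucose oxidation, at an internal start (chr7:95219795-95220268), and in an intron of EGFR, the epidermal growth factor receptor (chr7:55205086-55205680).

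FKBP5 counted as untouched by its range in the H2A table, although a recruited position lay close to it. The position (chr6:35699376-35700193) stood 3.02 kb from the 5′ end of FKBP5 in the later GENCODE annotation and 42.7 kb from the 5′ end in the table, and by the rule it touched ARMC12. Its window is the second one printed, with 74% GC and 37 CpG dinucleotides. The 300-base window at ZBTB16 had 42.7% GC, that at ATL2 37% and that at MCM2 47.7%.

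Estrogen response genes, many of them controlled by both hormones in luminal cells, were touched by recruited positions in 3 of 17 cases and by displaced positions in none (17.6%, against the 5.3% background, and 0%, against 9.14%). On so short a list these backgrounds amount to few genes. The touched genes were PGR, SIAH2, a ubiquitin ligase, with a position 2.82 kb upstream (chr3:150483733-150484236), and ESR1, the estrogen receptor, with an intronic one (chr6:152323270-152323860). Of 20 luminal markers, recruited positions touched ESR1 and displaced ones touched GATA3, with 2 intronic positions (5% each, against 5.3% and 9.14%). Basal and mesenchymal markers had recruited positions at 4 of 16 (TP63, FN1, ACTA2 and COL1A1) and displaced positions at 3 (TP63 with 3, CDH2 and ACTA2), or 25% and 18.8%, against 5.3% and 9.14%. Displaced positions also touched NR3C1, the glucocorticoid receptor, the coactivators NCOA2 and NCOA3, and MED1, a Mediator subunit. The positions on each listed gene numbered 1 to 4 in all.

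Counts for genes of the remodelling machinery were too small to set apart from the backgrounds of 5.3% for recruited and 9.14% for displaced positions. Of 15 NURF and ISWI genes, none had a recruited position and 1 had displaced ones, BPTF itself, with 2 (chr17:65835183-65835839 and chr17:65978583-65979192). Of 16 BAF genes, which encode another remodelling complex, none was touched by either list. Of 16 genes of LSD1, CoREST and HP1, none had a recruited position, and KDM1B and PHF21A had a displaced one each (12.5%). Among 20 genes of the path between poly-ADP-ribose and nuclear ATP, the pathway named in the study design, recruited positions touched 5. They were PARP1, the main poly-ADP-ribose polymerase, the NAD synthesis genes NMNAT2 and NMNAT3, TNKS, a tankyrase, and OARD1, which removes ADP-ribose from proteins. NMNAT2 and NMNAT3 also had 1 displaced position each. The list's count of 5 (25%) and 2 (10%) stood beside backgrounds of 5.3% and 9.14%.

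Among 24 genes of G1/S and replication, CCND3, a D-type cyclin, had a recruited position and MCM2, a replicative helicase subunit, a displaced one 0.996 kb upstream of its start (chr3:127315959-127316553). Of 17 immediate-early genes none had a recruited position and 1 a displaced one, and these counts too were small beside backgrounds of 5.3% and 9.14%. EGR2 had 2 displaced positions by its range in the table, which is 105 kb long, whereas the gene spans 7.17 kb in the later annotation, so both lay outside the gene as now annotated. EIF2B5, an initiation factor gene with 4 recruited and 2 displaced positions, likewise spans 549 kb in the table and 11.1 kb in the later annotation.

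Some genes carried several positions. ANKRD11, a chromatin regulator on chromosome 16, held 5 recruited and no displaced positions in 204 kb, 4 of them within 67.7 kb. DFNB31, a scaffold gene of hair cells, held 3 recruited and no displaced positions. ZNF704, a zinc finger gene, held 4 recruited and 1 displaced, and RALGPS1, a Ral exchange factor, held 5 and 2. By count, which favours long genes, displaced positions were most numerous in long genes. NLGN1, a synaptic adhesion gene on chromosome 3, held 1 recruited and 23 displaced positions in 888 kb. CADM2, another adhesion gene there, held none and 12, and NAALADL2 none and 11. VPS13B, a vesicle protein gene, held 1 and 11, and KCNMB2, a potassium channel subunit, held 1 and 10. The densest displaced windows of 100 kb held 7 positions each, and all 3 such windows lay on chromosome 3, at median GC contents between 31.3% and 34%.

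Most recruited positions had no displaced position within 10 kb. No such gap was computed for the grid, so the values do not say whether the lists lay nearer or further apart than other windows. The median gap between a recruited position and the nearest displaced one was 127 kb, and 121 recruited positions (6.55%) had one within 10 kb. In 83 of these 121 pairs the recruited member was the GC-richer, with medians of 42.3% and 38.3%. A single pair overlapped, on chromosome 12 (recruited chr12:70618265-70618870, displaced chr12:70618841-70619614). At ARL15, an Arf-like GTPase gene, a recruited position of 46% GC lay 428 bp from a displaced one of 37.7% GC. At FAM107B the gap was 703 bp, and the displaced member held a palindrome with 3 differences. MCCC1, a mitochondrial carboxylase gene, had a pair 292 bp apart at 41% and 39% GC.

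H2A over touched genes moved with GC content. Changes are log2 ratios to 0 min, taken after 0.05 RPKM was added to each value, which understates the change of low genes. The 19709 genes that averaged 0.1 RPKM or more entered, and a value below 0 means a lower RPKM than at 0 min. RPKM is scaled to each library, so such a value is not a measured loss of H2A. At 30 min the median was -0.17 (-0.19 to -0.15) for 767 genes with recruited positions only and 0.029 (0.016 to 0.043) for 1556 genes with displaced positions only. The median was 0.0054 for 300 genes with both, and -0.14 over all genes. Lower readings at 30 min were found in 77.2% of genes with recruited positions only, 43.3% with displaced positions only and 71.3% of all genes. With the median of the gene's GC bin taken off (20 bins), the medians were -0.0085 (-0.013 to -0.0044) for recruited only, -0.0017 (-0.0054 to 0.0018) for displaced only and -0.012 for both. At 60 min the uncorrected medians were -0.042, 0.021 and 0.023 in the same order, against -0.031 over all genes.

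Few touched genes passed 0.5 on the log2 scale. At 30 min, 0 genes with recruited positions only read higher and 7 with displaced positions only did, against a background of 0.345%. Lower readings past 0.5 were found in 7 and 4 of them, against 1.99%. At 60 min the higher counts were 0 and 1 (background 0.249%) and the lower counts 1 and 1 (background 0.639%). These counts carry no test, because each time had 1 library. The 7 lower genes with recruited positions only were all shorter than 5 kb, among them the histone genes HIST1H3A and HIST3H2A, which have near-identical copies. The longer genes that read higher with displaced positions were IAPP (1.539, 2.318 and 1.727 RPKM at 0, 30 and 60 min), SI (1.082, 1.616 and 1.265), NOVA1 (3.266, 4.741 and 3.572) and C18orf54 (0.893, 1.313 and 1.032). All 4 lay between 31.3% and 35.4% GC, and their changes at 30 min lay between 0.25 and 0.30 with the GC-bin median taken off.

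**Figure D5:**
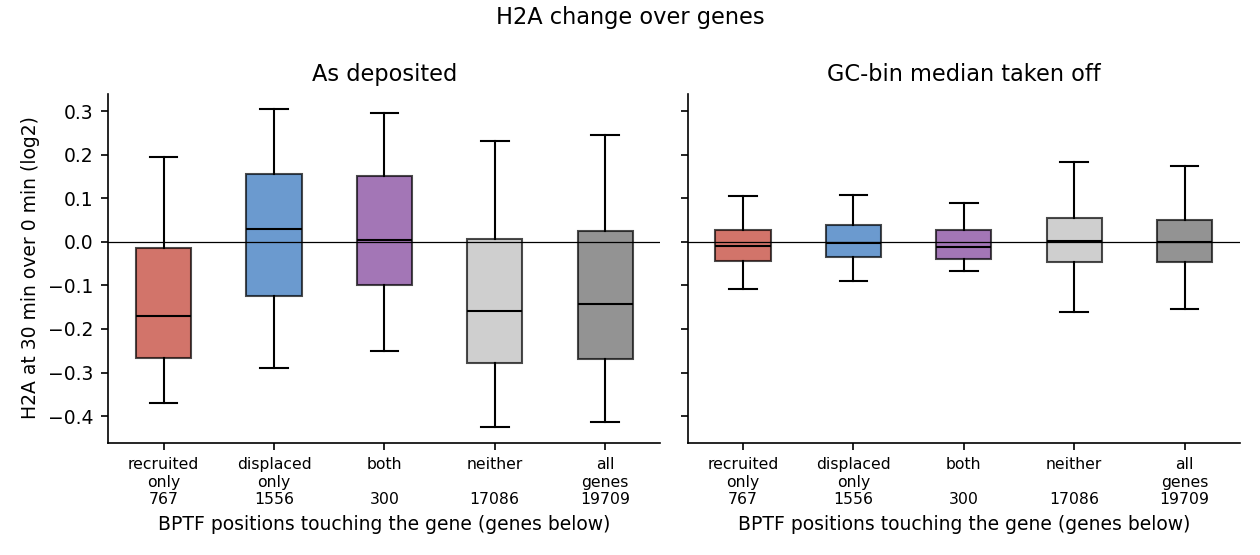
Log2 change of H2A RPKM at 30 min over 0 min, for genes touched by recruited positions only, displaced positions only, both or neither, and for all genes. Boxes are quartiles with the median, and whiskers run from the 5th to the 95th percentile over genes. As deposited, the medians were -0.17 and 0.029 for recruited only and displaced only, and with the GC-bin median taken off they were -0.0085 and -0.0017.

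Of the 8 progestin response genes with recruited positions, 6 read lowest at 30 min and 2 highest. Lower readings at 30 min than at 0 min were found in 71.3% of all genes and 77.2% of genes with recruited positions only. The count of 6 is thus near the background and sets these genes apart from neither. NFKBIA read 5.877, 4.323 and 5.531 RPKM at 0, 30 and 60 min, a log2 change of -0.44 at 30 min and -0.13 with the GC-bin median taken off. BCL2L1 read 6.079, 4.86 and 5.749 RPKM, with -0.32 and -0.11. STAT5A read 8.051, 6.236 and 7.395 RPKM, with -0.37 and -0.07, and ZBTB16 read 4.898, 3.992 and 4.481 RPKM, with -0.29 and -0.08. BCL6 read 9.649, 8.546 and 9.507 RPKM, with -0.17 and 0.03, and EHF 8.956, 8.127 and 9.277 RPKM, with -0.14 and -0.02. PGR read 3.149, 3.414 and 3.315 RPKM and TIPARP 4.908, 5.402 and 5.197 RPKM, both highest at 30 min. PGR stood at 0.11 and -0.0042 and TIPARP at 0.14 and -0.05, so neither was above 0 with the GC-bin median taken off. Of the genes with displaced positions, PDK4 read 1.251, 1.449 and 1.231 RPKM and EGFR 7.435, 6.645 and 7.206 RPKM, with 0.20 and -0.16 at 30 min and -0.07 and -0.01 with the GC-bin median taken off. No listed gene named here passed 0.5 in either direction.

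H2A at genes with a position near their start showed the same order. The median change at 30 min was -0.13 (-0.18 to -0.091) for 286 genes with a recruited position there and 0.015 (-0.020 to 0.058) for 310 with a displaced one. With the GC-bin median taken off they were -0.012 (-0.019 to -0.0046) and -0.0025 (-0.0095 to 0.0051). Within genes of 20 to 100 kb the medians were -0.17 for recruited only, 0.016 for displaced only and -0.094 over all genes, and less than 0.01 from 0 with the GC-bin median taken off. In genes under 20 kb they were -0.26, -0.15 and -0.23 in the same order. In genes over 100 kb they were -0.063, 0.073 and 0.012, and with the GC-bin median taken off -0.014 (-0.021 to -0.0080), -0.0057 (-0.0098 to -0.0012) and -0.0074.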

How the data were processed

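Per the submitters' processing notes, reads were handled with Bowtie 1.0.0 and HOMER 4.7.2 on hg19, also named GRCh37. Per the file headers, the H2A values are RPKM per gene of GENCODE version 18, which HOMER 4.7.2 computed from reads of either strand. Each deposited HP1γ or LSD1 peak has a score, which the authors set and which no source used here defines. The BPTF lists were deposited as bare positions. No source used here names their caller or the criterion for a change.

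The members and gene lists were chosen with earlier results of these data known. Samples were grouped by antibody and time, 1 library each, so no test was made. Starts and exons came from GENCODE version 44 lifted to GRCh37, promoter sequences from RefSeq on GRCh38.p14, and sequence from the GRCh37 reference. Positions were read as half-open intervals, and an overlap was at least 1 bp. Shares carry Wilson 95% intervals over positions, and medians order-statistic 95% intervals. The grid was planned with windows of 300 bp, and windows of 588 bp were added after the data were seen (300 bp gave 5.02% at promoters). Genes were named by this rule: listed genes that were touched, the 10 most touched per list, the closest pairs, the largest H2A changes in genes of at least 10 kb and the densest clusters. H2A values were compared between times within a gene only, and the reads behind them were not derived. Python 3.11.15, pandas 2.3.3, statsmodels 0.14.6 and pysam 0.24.0 were used. Overlap, motif and interval functions were tested on simulated data. Counts for the list of steroid receptors and coregulators are not reported here.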

Additional observations from a re-analysis of the deposited data

How the results depend on the processing

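Each list and each H2A time rests on 1 library, so no value has a replicate, and intervals cover the sampling of positions or genes alone. The direction between the lists for promoter positions, GC content and palindromes was the same under every alternative run for it, whereas the order for HP1γ and LSD1 at 30 min turned. Below 36% GC the order at 0 min turned as well, with 1.48% of recruited and 3.24% of displaced positions for HP1γ and 7.41% and 6.11% for LSD1. The recruited shares there rest on 2 and 10 of 135 positions, and the intervals of the lists overlapped. With a promoter window of 5 kb, 29.7% of recruited and 16.6% of displaced positions were at a promoter, and with the starts of the gene table only, 7.95% and 1.57%. Over positions as listed, the median GC content of recruited positions was 44.1%, palindromes were in 2.60% and 0.703%, and half-sites in 44.2% and 45.3%, so the order of the half-sites turned.

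With peaks of a score of at least 50, the overlap was 0.974% of recruited and 0.703% of displaced positions for HP1γ at 0 min, 0.325% and 0.469% at 30 min, 0.703% and 1.15% for LSD1 at 0 min, and 0.325% and 0.270% at 30 min. With a gap of up to 1 kb it was 10.5% and 8.85%, 6.44% and 6.83%, 8.28% and 13.0%, and 4.65% and 5.97%, in the same order. Without chromosome 3, an alternative chosen after seeing the data, displaced positions overlapped HP1γ in 3.43% and 1.86% at 0 and 30 min, and LSD1 in 4.18% and 1.56%. Of the recruited shares without it, none left its interval.

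The sign of the H2A median for genes with displaced positions only was reversed when the median of the GC bin was taken off, with -0.0017 at 30 min and -0.0020 at 60 min. For genes with recruited positions only, that alternative gave -0.0085 at 30 min and -0.0026 at 60 min. Centred on all genes, the medians at 30 min were -0.027 for recruited only and 0.17 for displaced only, and at 60 min -0.011 and 0.052. A pseudocount of 0.5 gave -0.13 for recruited only at 30 min and 0.017 for displaced only at 60 min, and gene bodies alone gave 0.044 for displaced only at 30 min. Past 0.3 in place of 0.5, genes with recruited positions only numbered 10 higher and 132 lower at 30 min, and 2 and 9 at 60 min. Genes with displaced positions only numbered 84 higher and 69 lower at 30 min, and 2 and 7 at 60 min. The cause of these shifts was not tested, except that a lower threshold, a wider window or a stricter score by construction admits more or fewer members. Merging positions and the other gene margins moved no count of positions or touched genes by over 1.5 times. Dropping the RPKM filter left each of the H2A medians within its interval.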
